A study of Rattus norvegicus with 123 samples.

Results

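The 114 transcripts described here are those that both Wy-14643 and the higher dose of methapyrilene raised at least 2-fold in rat liver. With phenobarbital they stayed under a limit of 0.5 log2 units above controls. They were chosen from deposited log2 values. The mean of the treated arrays had to exceed that of its control arrays by 1 or more log2 unit with Wy-14643 at 60 mg/kg for 28 d and with methapyrilene at 100 mg/kg for 14 d, and by under 0.5 with phenobarbital at 80 mg/kg for 28 d. These 3 differences are given below as a description, and no support is drawn from calls made on them. The 114 are members of a table of 22470 distinct transcripts, and they are numbered by rank, rank 1 having the largest value of the smaller of its Wy-14643 and methapyrilene differences.

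RNA from the liver was hybridised to RaGene 2.0 ST arrays (Affymetrix). The livers came from adult male Han Wistar rats that had received a compound or its vehicle by stomach tube each day and were killed the day after the final dose. The labels mark 112 arrays as of good quality and 11 as not, and the 112 form 29 groups of 3 to 5 arrays, each array standing for a separate animal. Groups treated with Wy-14643, phenobarbital, methapyrilene or piperonyl butoxide (600 mg/kg, 14 and 28 d) had controls given carboxymethylcellulose. Controls of 1,4-dichlorobenzene (600 mg/kg, 28 d) and cyproterone acetate (100 mg/kg, 14 and 28 d) received corn oil, and those of pioglitazone (16 and 63 mg/kg, 28 d) and rosiglitazone (10 mg/kg, 28 d) received water. Phenobarbital was also given for 14 and 90 d, and methapyrilene also at 30 mg/kg for 14 and 28 d. Doses are as the labels give them, in mg/kg, although the group names say ppm. The cyproterone acetate study has groups named F and M with controls of their own. No label says what the letters stand for, and every animal is described as male, so F and M are used here only as group names. The tissue was not checked against marker genes here, because the transcripts carry Ensembl identifiers only and none could be paired with a gene symbol. For the same reason no sequence is shown, gene lists could not be applied, and 4 members at most are printed by identifier.

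Wy-14643 activates PPAR alpha, a nuclear receptor that in rat liver switches on genes of fatty acid oxidation and makes peroxisomes proliferate. Methapyrilene is an antihistamine that injures and kills hepatocytes around the portal tracts of the rat liver lobule. Phenobarbital acts mainly through the nuclear receptor CAR and induces enzymes of drug metabolism.

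The members rose by very different amounts with the 2 compounds that chose them. With Wy-14643 the difference ran from 1.01 to 8.67 with a median of 1.58, and with methapyrilene at 100 mg/kg from 1.01 to 7.26 with a median of 1.76. The difference was larger with Wy-14643 for 48 members and larger with methapyrilene for 66. Differences of 2 or more were reached by 40 members with either compound but by 16 with both, and differences of 4 or more by 6 and by 8 members but by 1 with both. Over the 114 members the 2 sets of differences correlated with r = 0.34 and a rank correlation of 0.14, values that the limits of the rule also shape. With phenobarbital at 28 d the differences ran from -0.52 to 0.47 with a median of 0.12.

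**Figure D1:**
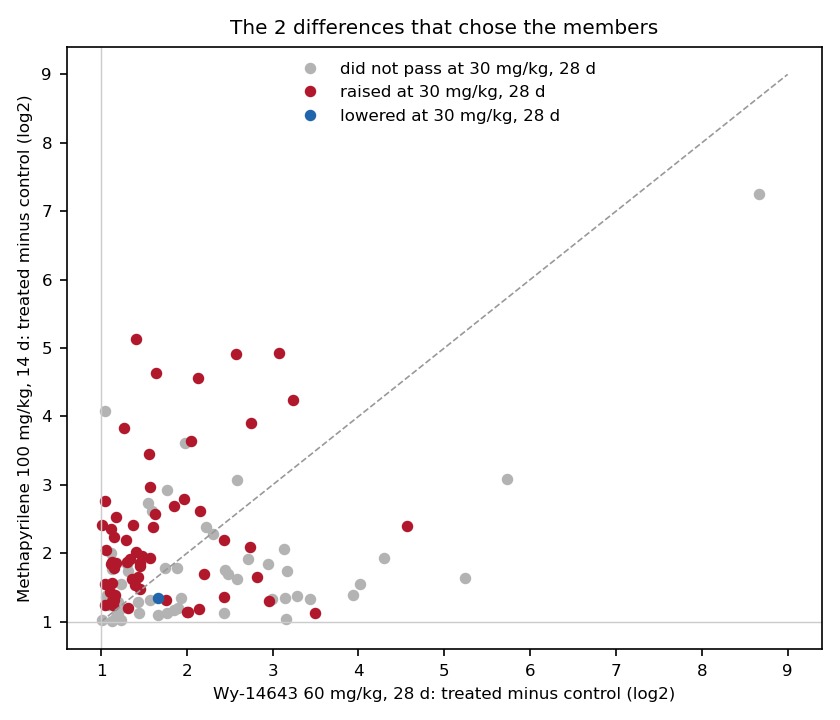
Each point is a member, with its difference from controls under Wy-14643 on the horizontal axis and under methapyrilene at 100 mg/kg on the vertical axis, both in log2 units. The dashed line marks equal differences, grey lines mark the limit of 1, and colours show which members the separate 30 mg/kg group raised (60), lowered (1) or did not change past the test (53).

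The individual arrays were above their controls almost throughout. Every Wy-14643 array exceeded every control array for 109 of the 114 members (8.38% of all transcripts), and every methapyrilene array at 100 mg/kg did so for all 114 (28.9%). In limma, a Benjamini-Hochberg adjusted p under 0.05 was the call. All 114 were raised in both comparisons (11.9% and 24.8% of all transcripts), which the rule brings about and from which nothing is read. Phenobarbital at 28 d raised 4 members and lowered 0 (0.952% and 0.28% of all transcripts), counts that its limit of 0.5 also shapes. The median difference over the members was 1.92, 1.54, 1.75, 1.32 and 1.60 in the Wy-14643 arrays, and 1.75, 1.76 and 1.78 in the 3 methapyrilene arrays. The 5 Wy-14643 animals thus differed more among themselves than the 3 methapyrilene animals did. Just inside the limit of 1 lay members at 1.01, 1.01 and 1.04 with Wy-14643 and at 1.01, 1.03 and 1.03 with methapyrilene. Just outside lay transcripts at 0.98 with Wy-14643 and at 0.99, 0.98 and 0.97 with methapyrilene. Without the limit on phenobarbital there would be 140 members. The 26 left out had phenobarbital differences of 0.51 to 6.25, and the members nearest that limit had 0.47, 0.47 and 0.43.

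By mean log2 value, 24 of the members were among the dimmest 40% of transcripts. Their spread between animals of 1 group was wider than usual, with a median residual SD of 0.29 against 0.20 for all transcripts. They also varied together between animals that had been treated alike. Over the 80 arrays of the groups in comparisons that share no array with the rule, the mean pairwise correlation of residuals was 0.13 among members and 0.0023 among all transcripts. The points of these correlations share arrays. Over all 112 arrays, those that chose the members included, 12 members have a partner with a residual correlation above 0.9. These are the ranks 51, 57, 59 and 60 as a group and the pairs 76 and 88, 78 and 94, 84 and 85, and 86 and 90, so the counts below contain transcripts that may belong to 1 gene. In whole liver, more RNA per cell and more cells of a type that holds the transcript cannot be told apart.

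ENSRNOT00000013729, rank 1, had the largest differences with both compounds. Its log2 values were 11.92, 10.94, 11.48, 10.20 and 10.94 with Wy-14643 against 1.47, 3.99, 1.31, 2.81 and 2.57 in controls, a difference of 8.67 (SE 0.59). They were 10.25, 9.56 and 9.61 with methapyrilene at 100 mg/kg against 3.66, 1.90 and 2.08, a difference of 7.26 (SE 0.77). Neither pair of groups overlapped. With methapyrilene at 30 mg/kg for 28 d it stood at 2.64, 5.98 and 4.26 against 1.95, 3.38 and 2.96, and the groups overlapped (difference 1.53, SE 0.77, adjusted p = 0.224). In the 12 treated comparisons that share no array with the rule it was not called in any, and its differences lay between -0.92 and 1.53.

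A single untreated animal was a partial exception to that pattern. Among the corn oil controls of 1,4-dichlorobenzene the rank 1 transcript read 2.39, 2.41 and 1.53 in replicates 1, 2 and 4 but 8.11 in replicate 5. The rank 3 member, raised by 5.73 with Wy-14643, read 4.35, 4.59 and 4.55 in those 3 arrays and 7.55 in replicate 5. In that array 8 members (ranks 1, 3, 8, 20, 26, 30, 33 and 41) stood at least 1 log2 unit above the mean of the other 3 controls. The median over the 50 control arrays was 1 such member. Over the 114 members the deviation of replicate 5 from its fellow controls correlated with the Wy-14643 difference with r = 0.79 and with the methapyrilene difference with r = 0.40. Rank 1 had both the largest deviation in this array, 6.00, and the largest Wy-14643 difference, 8.67. These correlations lean on it and were not recomputed without it, and the rule selected on both compound differences. The next highest correlation with the Wy-14643 difference among the 50 control arrays was 0.46. With the methapyrilene difference the 14 d F control replicate 4 had a higher one, 0.47, and 5 members at least 1 log2 unit up. What sets this animal apart was not tested, and the 1,4-dichlorobenzene counts are given below with and without it.

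**Figure D2:**
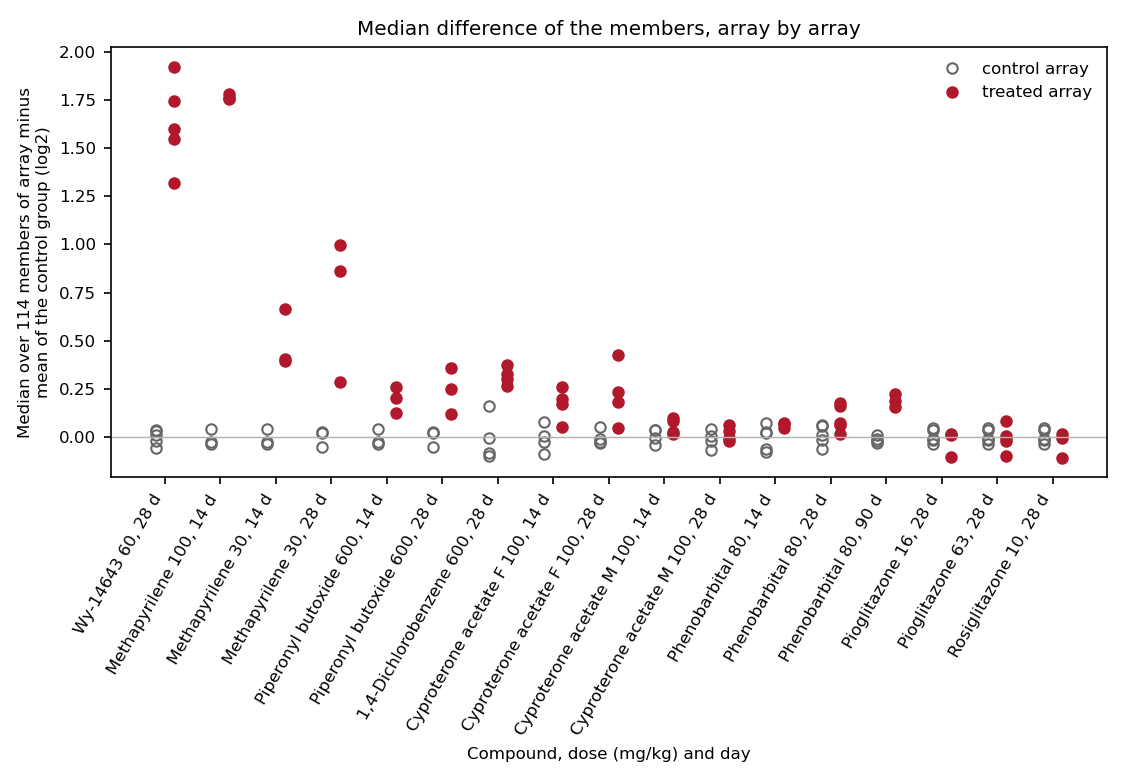
For each treated group (filled, right) and its control group (open, left), every point is 1 array and shows the median, over the 114 members, of its log2 value minus the control mean. Wy-14643 and methapyrilene at 100 mg/kg, which chose the members, lie between 1.32 and 1.92, the 3 arrays of methapyrilene at 30 mg/kg for 28 d lie between 0.29 and 1.00, and the pioglitazone and rosiglitazone arrays lie near 0.

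The lower dose of methapyrilene, given for longer to other animals with other controls, raised about as many members as it left below the threshold. At 30 mg/kg and 28 d 60 of the 114 were raised and 1 was lowered (5.37% and 4.06% of all transcripts). Of the 60, 30 rose at least 2-fold, a share that was not counted over all transcripts. The median difference was 0.70 over the members and -0.03 over all transcripts. Above 0 lay 108 members, against 44.8% of all transcripts. For 112 of the 114 the difference was smaller than at 100 mg/kg, with a median ratio of 0.383. The rule selected for a large difference at 100 mg/kg and not at 30 mg/kg. The 2 groups also differ in day and controls, so nothing about dose is read from this count. Members raised more by methapyrilene than by Wy-14643 were raised here in 47 of 66 cases with a median of 0.83. Those raised more by Wy-14643 were raised in 13 of 48 cases with a median of 0.58. This split uses the differences that chose the members, and such a split was not made over all transcripts. Over the members, the differences at 30 mg/kg correlated with those at 100 mg/kg with r = 0.65 and with those of Wy-14643 with r = 0.06. Over all transcripts, whose values share the same arrays, the 2 correlations were 0.61 and 0.28.

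The 3 animals at 30 mg/kg and 28 d responded to different degrees. The median difference over the members was 0.29 in replicate 1, 1.00 in replicate 2 and 0.86 in replicate 3. The median SD of a member within this group was 0.43, against 0.17 in its controls and 0.18 for all transcripts in the same treated arrays. Without replicate 2 the number of raised members was 37 and without replicate 1 it was 80. A fit with only this treated group and its controls does not borrow the spread from the rest of the series. In that fit 3 members were raised, and 10 of all 22470 transcripts.

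ENSRNOT00000013515, rank 2, is set out for 2 methapyrilene groups that differ in dose, day and controls, the 100 mg/kg group having chosen it. It read 8.34, 10.73 and 9.81 at 30 mg/kg and 28 d against 7.69, 7.44 and 7.73 in controls, with no overlap. The difference was 2.01 (SE 0.25, adjusted p = 7.03e-09), against 4.23 at 100 mg/kg and 14 d and 3.23 with Wy-14643. At 100 mg/kg it had read 12.12, 12.34 and 12.03 against 8.00, 7.75 and 8.03. With Wy-14643 it had read 11.27, 10.91, 11.24, 10.51 and 10.98, all above the control range of 7.54 to 7.88. With cyproterone acetate in the F group it moved the other way, by -0.88 (SE 0.22, adjusted p = 0.00195) at 14 d and by -0.74 (SE 0.22, adjusted p = 0.0104) at 28 d.

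The largest rise of a member at 30 mg/kg and 28 d was that of rank 47. Its values were 6.91, 9.68 and 8.94 against 4.89, 5.23 and 5.03, and replicate 1 was again the lowest of the treated animals (difference 3.46, SE 0.36, adjusted p = 5.28e-12). Rank 7 read 6.24, 9.01 and 8.01 against 5.29, 4.54 and 4.88 (difference 2.85, SE 0.26, adjusted p = 4.62e-14). Rank 37 read 7.80, 9.16 and 8.43 against 5.77, 5.43 and 5.81 (difference 2.79, SE 0.39, adjusted p = 1.88e-07). In all 3 the treated and control arrays were apart, and in all 3 the treated animals kept the same order. Here as elsewhere the SE and adjusted p rest on a spread pooled over all 29 groups. The SD of the treated arrays themselves was 1.44 at rank 47, 1.40 at rank 7 and 0.68 at rank 37. The p-values therefore do not measure the spread among these treated animals. The lowered member, rank 55, read 5.26, 5.30 and 5.28 against 5.66, 5.86 and 5.90 (difference -0.53, SE 0.18, adjusted p = 0.0477). That call was lost when any 1 of the 6 arrays was left out, with all arrays, with centred arrays and with a replicate block. It was also lost with only the treated group and its controls in the fit.

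At 14 d the comparison at 30 mg/kg uses the same 3 control arrays as the rule, so its values are set beside the others and support nothing. It raised 36 members and lowered 0 (2.31% and 1.07% of all transcripts), with a median of 0.49. Of these 36, 35 were also raised at 28 d, and 86 of the 114 members had a smaller difference at 14 than at 28 d. Piperonyl butoxide at 14 d shares those controls too and raised 12 and lowered 0 (1.23% and 0.676%), with a median of 0.19.

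Piperonyl butoxide, which is added to insecticides to block cytochrome P450 enzymes, raised 31 members at 28 d and lowered 1 (4.93% and 5.71% of all transcripts). The median difference was 0.27, against 0.03 over all transcripts. The per-animal medians were 0.25, 0.12 and 0.36, and without replicate 3, the highest, 18 members were raised. With only the treated group and its controls in the fit 1 member was raised, and 36 of all 22470 transcripts. Its 3 controls are also those of methapyrilene at 30 mg/kg, so the 2 compounds were compared directly. Methapyrilene stood above piperonyl butoxide for 47 members and below it for 7 (10.1% and 8.75% of all transcripts), with a median of 0.40. The 47 became 27 without methapyrilene replicate 2 and 26 without replicate 3. With only the 2 treated groups in the fit, which hold 3 arrays each, 0 were called.

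The 2 compounds differed most at rank 7, which piperonyl butoxide left at 4.15, 4.65 and 4.89, below the methapyrilene values of 6.24, 9.01 and 8.01 (difference 3.19, SE 0.26, adjusted p = 3.40e-16). Ranks 37 and 47 followed, at 2.78 (SE 0.39) and 2.74 (SE 0.36). The opposite was seen at rank 41, with 7.70, 8.66 and 8.20 under methapyrilene and 9.44, 8.79 and 10.10 under piperonyl butoxide, with no overlap (difference -1.25, SE 0.22, adjusted p = 1.36e-05). Rank 34 followed, with 4.04, 3.93 and 4.18 under methapyrilene and 4.75, 4.98 and 5.76 under piperonyl butoxide, also with no overlap (difference -1.12, SE 0.26, adjusted p = 0.000752).

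1,4-Dichlorobenzene, a chlorinated aromatic compound used in moth repellents, raised 31 members and lowered 1 (3.89% and 2.07% of all transcripts). The median difference was 0.31 over the members and -0.03 over all transcripts. The per-animal medians were 0.37, 0.30, 0.33 and 0.27, all above the 4 control arrays, of which replicate 5 was the highest at 0.16. Without that control array 33 members were raised and 0 lowered. Of the 31, 18 were among the 31 raised by piperonyl butoxide and 22 were among the 60 raised by methapyrilene at 30 mg/kg, comparisons that share no array with this one. The overlap with methapyrilene is 71.0% of the first list and 36.7% of the second. Overlaps of these lists over all transcripts were not counted, so nothing particular to the members is read from them.

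Rank 65 was the member raised most by 1,4-dichlorobenzene, reading 6.65, 7.36, 7.05 and 7.15 against 4.89, 5.22, 5.21 and 5.01 (difference 1.97, SE 0.18, adjusted p = 1.66e-14). It was also the member raised most by cyproterone acetate in the F groups. There it read 8.52, 7.58, 8.12 and 8.11 against 5.74, 5.59, 5.88 and 6.04 at 14 d, and 7.94, 8.16, 8.06 and 7.97 against 5.87, 5.73, 5.42 and 5.67 at 28 d. The differences of 2.27 and 2.36 (SE 0.18 for each) exceed the 1.87 with methapyrilene at 100 mg/kg and the 1.31 with Wy-14643, a contrast between compounds that was not tested. Ranks 35 and 80 came next under 1,4-dichlorobenzene, with differences of 1.85 (SE 0.38, adjusted p = 0.000397) and 1.62 (SE 0.18, adjusted p = 1.20e-10).

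ENSRNOT00000015801, rank 13, was the member that 1,4-dichlorobenzene lowered. It read 4.87, 7.44, 5.46 and 5.93 against 6.92, 6.59, 8.61 and 8.11, so the second treated array lay within the control range (difference -1.63, SE 0.49, adjusted p = 0.0276). The call was lost without control replicate 5 and without treated replicate 1, 3 or 5. Methapyrilene at 30 mg/kg and 28 d raised it to 10.09, 9.82 and 10.08 from 8.20, 7.58 and 7.11, with no overlap (difference 2.37, SE 0.56, adjusted p = 0.00238). The same transcript separated the F and M controls most widely. F controls read 12.82, 12.76, 12.77 and 12.79 at 14 d and M controls 9.14, 9.42, 8.47 and 8.69 (difference 3.85, SE 0.49, adjusted p = 1.35e-09). At 28 d they read 12.78, 12.81, 12.87 and 12.83 against 7.07, 7.08, 8.52 and 7.65 (difference 5.25, SE 0.49, adjusted p = 4.85e-15). The F arrays were nearly equal to each other while the M arrays spread over more than a log2 unit at 28 d.

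**Figure D3:**
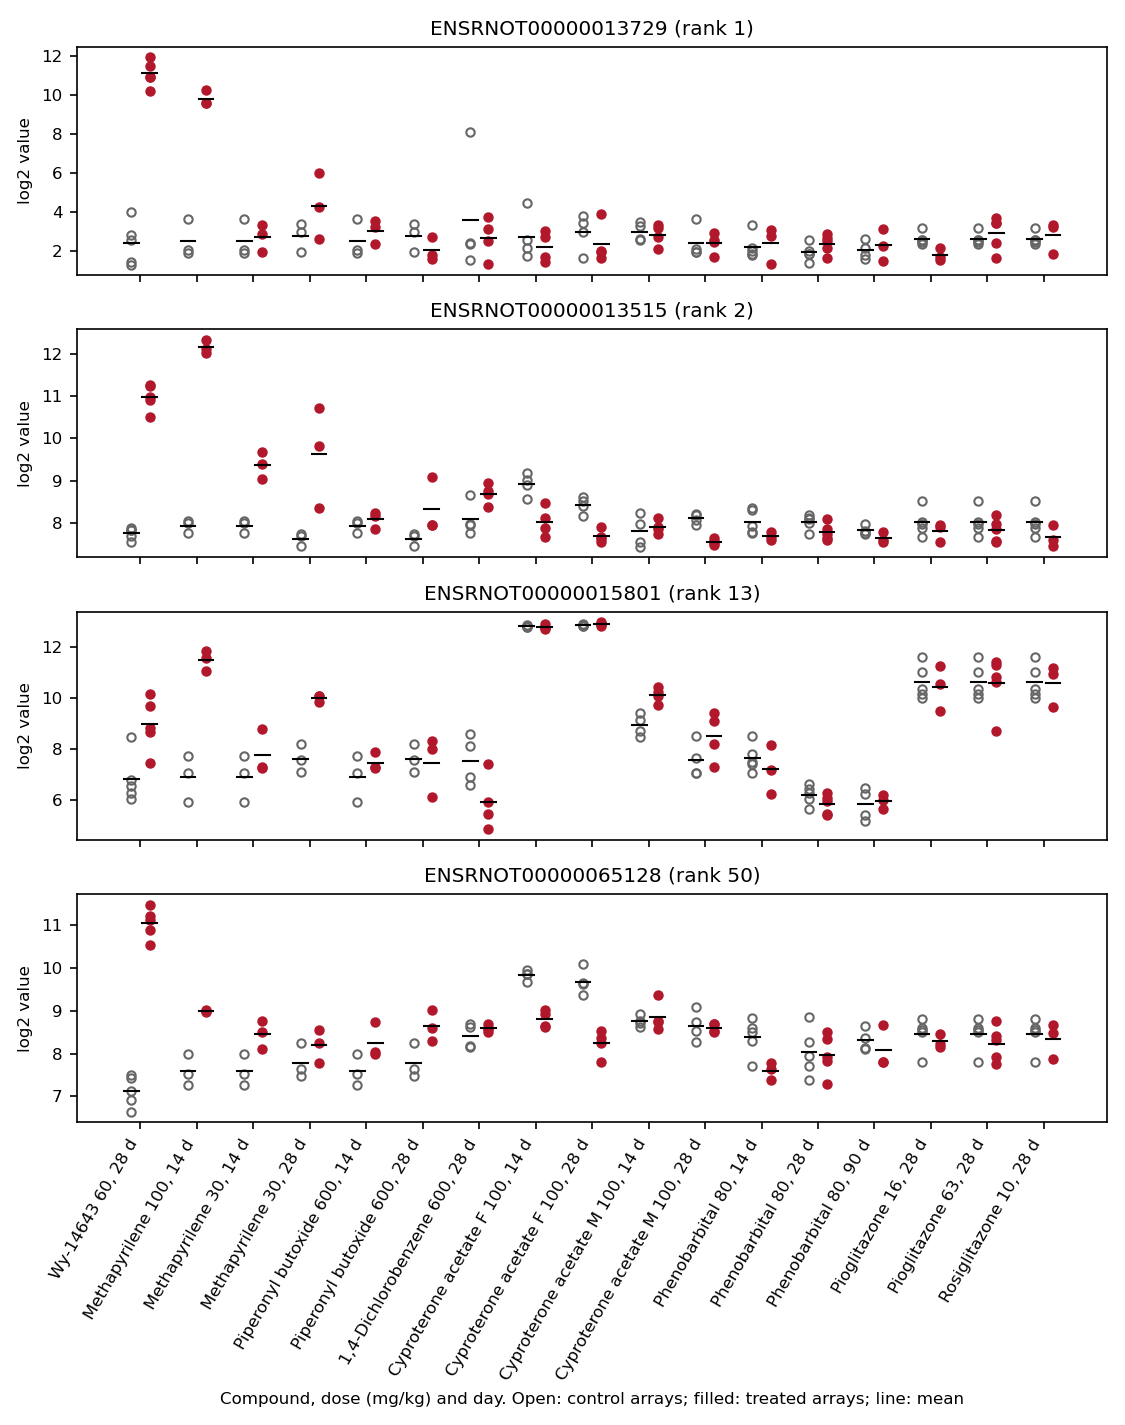
Log2 values of the 4 members named by identifier, array by array, for each treated group (filled) beside its controls (open), with lines at the group means. Controls that serve several treated groups appear more than once, and in the top panel the corn oil control at 8.11 stands apart from the other 3 controls of 1,4-dichlorobenzene.

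Cyproterone acetate, a steroidal antiandrogen that also acts as a progestogen, both raised and lowered members. In M, 15 rose and 6 fell at 14 d (5.22% and 4.72% of all transcripts), and 25 rose and 4 fell at 28 d (6.16% and 5.14%), with medians of -0.01 on both days. In the F group it raised 39 and lowered 16 at 14 d (7.53% and 6.21%) and raised 46 and lowered 13 at 28 d (8.91% and 6.24%), with medians of 0.22 and 0.21. With arrays centred on their medians the M group at 14 d had 24 raised and 4 lowered. Without control replicate 4 its lowered members were 2. In the F group at 14 d the 16 lowered members became 9 without control replicate 1 or 4 and 10 without treated replicate 1 or 2.

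The 14 and 28 d comparisons share no array. Of the 15 members raised in M at 14 d, 14 were among the 25 raised at 28 d, which is 93.3% of the first list and 56.0% of the second. Over all transcripts raised in M the shares were 55.1% and 46.7%. Of the 39 raised in F, 34 were among the 46, or 87.2% and 73.9%, against 69.8% and 59% over all transcripts. For lowered members the overlap was 3 of 6 with 4 in M (50% and 75%) and 11 of 16 with 13 in F (68.8% and 84.6%). Over all lowered transcripts the shares were 56.2% and 51.6% in M and 57.1% and 56.8% in F. No member raised on 1 day in a group was lowered on the other. The calls in F and M were also set together at 28 d, though not over all transcripts. Of the members, 16 were raised in both, 2 were lowered in both, and 1 was raised in F and lowered in M.

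That 1 member is rank 5, lowered in M by -0.78 (SE 0.27, adjusted p = 0.0432) and raised in F by 0.95 (SE 0.27, adjusted p = 0.00728) at 28 d. Whether the effect of cyproterone acetate differs between F and M was tested as a difference of differences. It passed for 13 members at 14 d, 10 higher and 3 lower in F (1.93% and 1.45% of all transcripts), and for 23 at 28 d, 16 higher and 7 lower (2.06% and 1.41%). The 10 became 6 without treated F replicate 3. In a fit of only the treated and control F and M groups of the same day, the calls at 14 d became 8 higher and 8 lower. The 16 higher at 28 d became 8 in such a fit. Of the 10, 7 were among the 16, and all 3 that were lower at 14 d were among the 7. The matching shares over all transcripts were not counted.

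Rank 58 had the largest such difference. In F at 28 d it read 6.89, 6.61, 6.67 and 7.61 against 4.85, 5.51, 4.55 and 4.92, with no overlap (difference 1.99, SE 0.30, adjusted p = 1.14e-07). The effect in F exceeded that in M by 2.53 (SE 0.42, adjusted p = 1.10e-05). In the 14 d controls, which are other arrays, the same member was lower in F than in M, at 5.90, 5.68, 5.73 and 5.00 against 6.97, 7.78, 7.53 and 7.43, with no overlap (difference -1.85, SE 0.30, adjusted p = 1.27e-06). After treatment at 28 d the M arrays read 6.24, 6.61, 7.11 and 6.08 and overlapped the treated F arrays.

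ENSRNOT00000065128, rank 50, moved in the opposite sense. It read 9.65, 9.62, 10.10 and 9.36 in F controls at 28 d and 8.25, 8.37, 7.80 and 8.53 after cyproterone acetate, with no overlap (difference -1.45, SE 0.24, adjusted p = 1.68e-06). At 14 d the difference was -1.02 (SE 0.24, adjusted p = 0.000965). The effect in F was below that in M by -1.39 (SE 0.34, adjusted p = 0.00604) at 28 d. Piperonyl butoxide raised it by 0.85 (SE 0.28, adjusted p = 0.0328), and Wy-14643 by 3.93.

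The F and M controls themselves differed in some of the members. At 14 d 22 were higher in F and 11 higher in M (3.87% and 4.05% of all transcripts), and at 28 d 26 were higher in F and 4 in M (4.09% and 3.6%). Of the 22, 18 were among the 26 (81.8% and 69.2%, against 65.7% and 62.2% over all transcripts higher in F). Of the 11, 4 were the 4 of 28 d (36.4% and 100%, against 50.8% and 57.2% over all transcripts higher in M). Without F control replicate 3 the 4 became 2. The medians over all members were 0.03 at 14 d and 0.10 at 28 d, when 77 of the 114 lay above 0, against 46.2% of all transcripts.

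In the F groups the median effect of cyproterone acetate ran against the control difference, for members and for all transcripts that differed between the controls. For members higher in F controls, the share lowered was near that of all such transcripts. Control differences of 1 day were set against treatment effects of the other, so that no array is shared. Of the 22 members higher in F controls at 14 d, 8 were lowered and 1 raised by the compound in F at 28 d, with a median of -0.36. Of all 870 transcripts higher in F controls at 14 d, 40.2% were lowered and 4.02% raised there, with a median of -0.25. Of the 11 higher in M controls, 8 were raised and 0 lowered in F at 28 d, with a median of 0.89 and all 11 above 0. Of all 909 transcripts higher in M controls, 33.9% were raised and 5.5% lowered, with a median of 0.17. In the M group at 28 d the 22 held 6 raised and 1 lowered, and the 11 held 0 raised and 1 lowered. There 18.3% of the 870 were raised and 7.7% lowered, and 7.81% of the 909 were raised and 17.6% lowered. Of the 26 members higher in F controls at 28 d, 11 were lowered and 2 raised in F at 14 d, and of all 919 such transcripts 37.1% and 2.18%. Each of these counts is of members, which are not independent of each other.

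**Figure D4:**
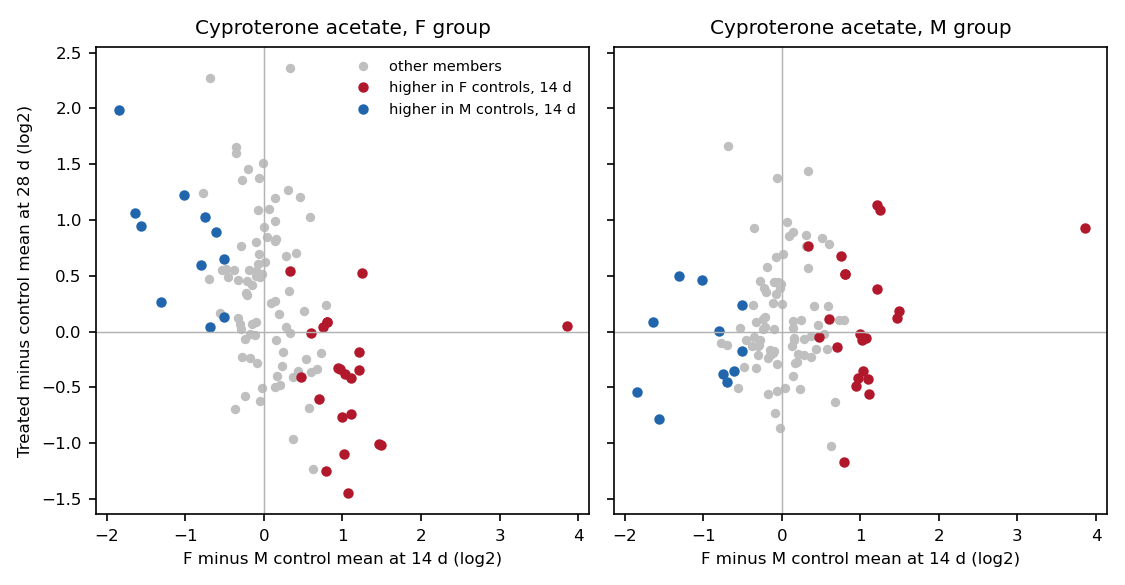
Each point is a member, with the F minus M difference of the 14 d controls on the horizontal axis and the cyproterone acetate effect at 28 d on the vertical axis, in log2 units, for the F group (left) and the M group (right). Red marks the 22 members higher in F controls and blue the 11 higher in M controls at 14 d, and in the F group all 11 blue points lie above 0.

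Among members higher in F controls, rank 86 read 7.92, 8.59, 8.11 and 7.98 in F controls and 6.76, 6.55, 6.66 and 6.77 in M controls at 14 d (difference 1.46, SE 0.16, adjusted p = 1.15e-11). At 28 d, in other arrays, it read 6.92, 7.02, 6.94 and 7.34 in F after cyproterone acetate and 7.85, 8.41, 8.26 and 7.74 in the F controls, with no overlap (difference -1.01, SE 0.16, adjusted p = 9.54e-07). Its linked rank 90 fell by 1.02 (SE 0.17) at 28 d. Among members higher in M, rank 27 read 5.94, 5.82, 5.98 and 5.92 in F controls and 7.42, 7.74, 7.59 and 7.46 in M controls (difference -1.64, SE 0.19, adjusted p = 2.27e-11). At 28 d it read 7.42, 7.14, 6.73 and 7.22 in F after cyproterone acetate and 6.53, 5.96, 6.17 and 5.62 in the F controls, with no overlap (difference 1.06, SE 0.19, adjusted p = 6.02e-06). The effect in F at 28 d exceeded that in M by 0.97 (SE 0.26, adjusted p = 0.0172).

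Phenobarbital at the 2 times that did not enter the rule left nearly all members below the threshold. At 14 d 1 was raised and 0 lowered (0.672% and 0.765% of all transcripts), with a median of 0.08 and a 95% interval of typically 0.41 to either side of a member's difference (median). At 90 d 6 were raised and 0 lowered (1.36% and 0.623%), with a median of 0.16. The 6 became 3 without treated replicate 2 and 19 when the arrays set aside for their quality were included. Rank 44 led at 90 d, at 5.18, 5.01 and 5.27 against 3.97, 3.98, 4.10 and 4.17, with no overlap (difference 1.10, SE 0.21, adjusted p = 0.000357). Ranks 24 and 88 followed at 0.95 (SE 0.26) and 0.81 (SE 0.23). The member raised at 14 d, rank 106, read 9.53, 9.54 and 9.70 against 9.13, 9.22, 9.28, 8.96 and 9.46 (difference 0.38, SE 0.11, adjusted p = 0.0485), and that call was lost without control replicate 1, 2, 3 or 4 and without any of the 3 treated arrays.

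Pioglitazone and rosiglitazone, thiazolidinediones that activate the nuclear receptor PPAR gamma, called few members. Pioglitazone at 16 mg/kg called 0 in limma (0.0223% and 0.0267% of all transcripts raised and lowered), with 11 at an unadjusted p under 0.05. At 63 mg/kg it raised 1 and lowered 3 (0.935% and 1.48%), and rosiglitazone raised 1 and lowered 1 (0.2% and 0.481%). The 3 groups share 5 water controls. With only 1 treated group and these controls in each fit, none of the 6 calls was made. The calls at 63 mg/kg were rank 11 (difference 0.85, SE 0.22, adjusted p = 0.0179), ranks 86 and 90 (-0.75 and -0.69) and rank 27 (-0.71). Rank 11 read 7.16, 7.23, 6.81, 6.66 and 6.89 against 5.75, 5.85, 6.08, 6.28 and 6.51, with no overlap, and its call was lost without treated replicate 2 or control replicate 1 or 2. Rosiglitazone lowered rank 27 (-0.73, SE 0.19, adjusted p = 0.0439) and raised rank 55 (0.62, SE 0.16, adjusted p = 0.0413). Each of these 2 calls was lost when any of several single arrays was left out.

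Across the 12 treated comparisons that share no array with the rule, the members ranged from 13 called in none (60.9% of all transcripts) to 1 raised in 9. Rises were called for 60 members with cyproterone acetate (15.5% of all transcripts), which enters with 4 comparisons, and for 60 with methapyrilene at 30 mg/kg (5.37%). They were called for 31 with 1,4-dichlorobenzene (3.89%), 31 with piperonyl butoxide (4.93%), 6 with phenobarbital (1.69%), 1 with pioglitazone (0.939%) and 1 with rosiglitazone (0.2%). By number of compounds, 22 members were raised by none (77.4% of all transcripts), 36 by 1 (15.9%), 28 by 2 (4.45%), 15 by 3 (1.5%), 12 by 4 (0.654%) and 1 by 5 (0.111%). Of the 36, 16 had their rise called with cyproterone acetate and 14 with methapyrilene.

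**Figure D5:**
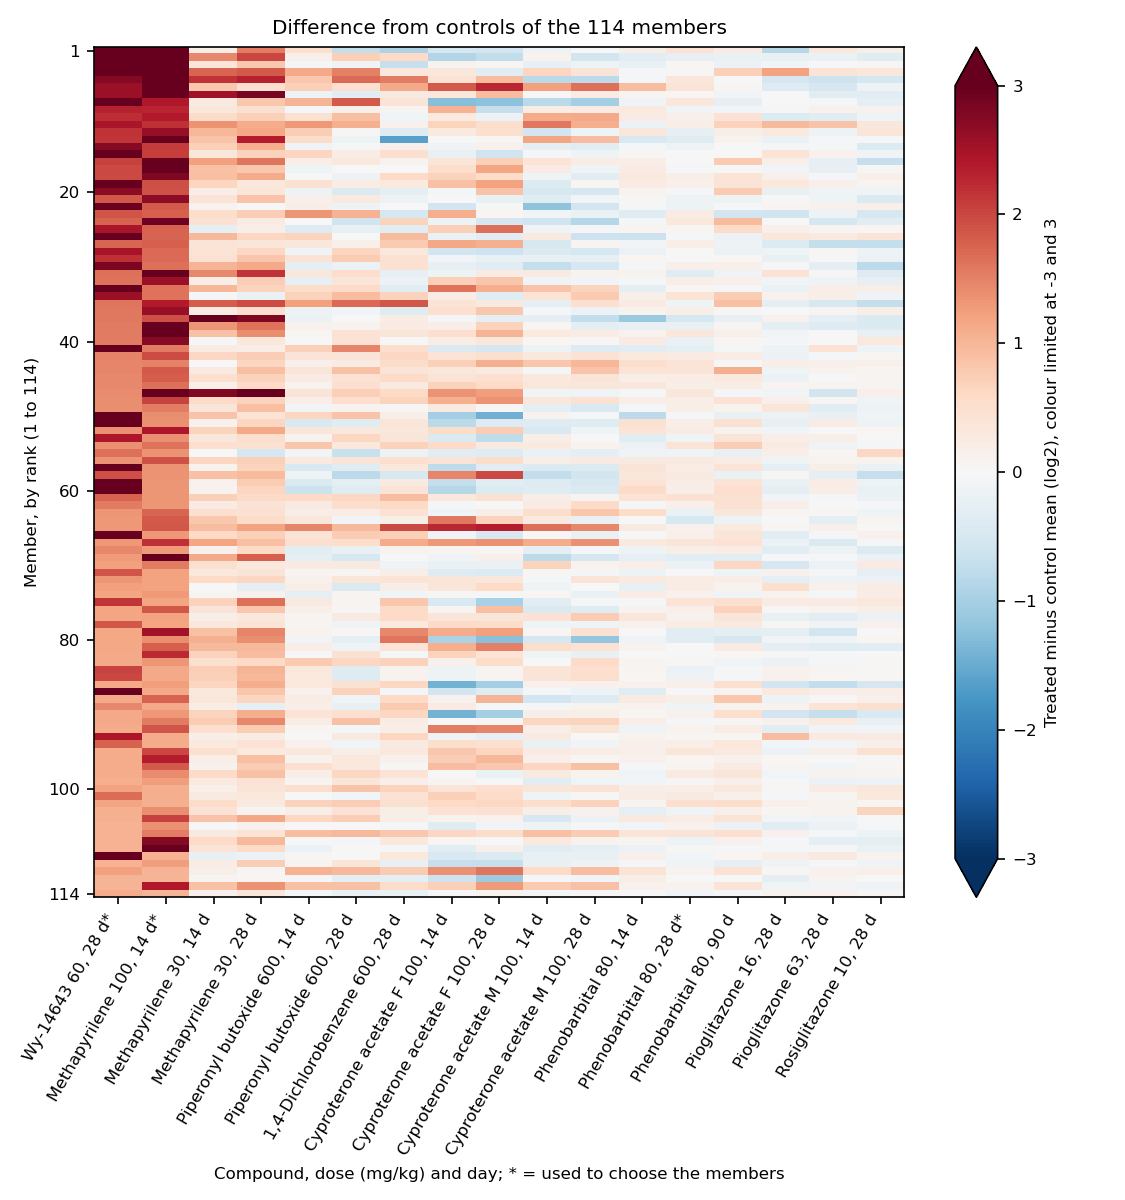
Heat map of the difference from controls (log2, colour limited at -3 and 3) for the 114 members, from rank 1 at the top to rank 114, in the 17 treated groups. The columns marked with an asterisk chose the members. Red is widespread under methapyrilene at 30 mg/kg, red and blue are mixed under cyproterone acetate, and the pioglitazone and rosiglitazone columns are pale.

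The 9 members raised by all 4 of 1,4-dichlorobenzene, cyproterone acetate, methapyrilene at 30 mg/kg and piperonyl butoxide (0.249% of all transcripts) were ranks 5, 42, 45, 48, 56, 61, 65, 83 and 106. Rank 106 was raised in 9 of the 12 comparisons, 1 of them the 14 d phenobarbital call that single arrays undo, and no other member was raised in more than 7. Its differences were 0.81 (SE 0.10) with 1,4-dichlorobenzene, 0.97 (SE 0.12) with piperonyl butoxide at 28 d, 0.40 (SE 0.12) with methapyrilene at 30 mg/kg, and 0.54 to 0.90 with cyproterone acetate. In the 28 d controls of methapyrilene it read 9.13, 9.11 and 9.13, and under methapyrilene 9.31, 9.75 and 9.51, with no overlap.

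At the other end, 13 members were called in none of the 12 comparisons, ranks 1 and 3 among them. Rank 3 read 11.39, 10.58, 10.77, 9.24 and 10.42 with Wy-14643 against 4.56 to 5.12 in controls, and 8.15, 7.69 and 7.49 with methapyrilene at 100 mg/kg against 4.77, 4.56 and 4.74. At 30 mg/kg and 28 d it read 4.94, 6.00 and 5.40 against 4.78, 4.57 and 4.60, with no overlap, and the difference of 0.80 had an adjusted p of 0.103. Of all members rank 3 was the most like rank 1 over the 17 treated groups, with r = 0.96 between their differences, a measure that the 2 groups of the rule dominate. The linked ranks 51, 57, 59 and 60 are not among the 13. They were raised in none of the 12 comparisons but lowered by cyproterone acetate in F at 14 d, by -0.72 to -0.86. Their Wy-14643 differences were 2.99 to 3.43, and their differences of 0.64 to 0.77 at 30 mg/kg of methapyrilene did not pass.

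A raised call in 1 comparison and a lowered call in another was found for 17 members (3.86% of all transcripts). Rank 8 was raised by piperonyl butoxide, at 6.46, 5.95 and 7.30 against 5.08, 4.71 and 4.43 (difference 1.83, SE 0.25, adjusted p = 2.98e-08). Cyproterone acetate lowered it in all 4 of its comparisons, by -0.82 and -1.02 in M and by -1.27 and -1.23 in F. Rank 80 was raised by 1,4-dichlorobenzene, at 9.93, 10.01, 9.85 and 9.84 against 8.26, 8.08, 8.23 and 8.60, and by methapyrilene at 30 mg/kg (difference 1.39, SE 0.21). Cyproterone acetate lowered it in all 4 comparisons as well, by -1.25 (SE 0.18) in F and -1.17 (SE 0.18) in M at 28 d. Whether the effects of different compounds on these members differ was not tested beyond the direct comparison of methapyrilene with piperonyl butoxide.

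Transcripts raised by only 1 of the 2 choosing compounds behaved differently in places, and their counts are given side by side without a test. Of 146 transcripts with a Wy-14643 difference of 1 or more and a methapyrilene difference under 0.5, methapyrilene at 30 mg/kg and 28 d raised 4.11%, 1,4-dichlorobenzene 24.0% and piperonyl butoxide 21.9%. Of 1178 transcripts with the reverse pattern, the same comparisons raised 37.3%, 3.48% and 5.6%. For the 114 members the shares were 52.6%, 27.2% and 27.2%. Cyproterone acetate in F at 28 d raised 40.4% of the members, 22.0% of the 1178 and 9.59% of the 146. Of the 26 transcripts kept out by the limit on phenobarbital, 22 were raised by 1,4-dichlorobenzene (84.6%) and 19 by piperonyl butoxide at 28 d (73.1%). Cyproterone acetate in F at 28 d raised 19 of these 26 (73.1%), and methapyrilene at 30 mg/kg and 28 d raised 13 (50.0%). The first 3 of these shares are above those of the members.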

How the data were processed

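Per the labels' protocols, liver RNA was hybridised to Affymetrix RaGene 2.0 ST arrays. The authors deposited log2 values of 23110 transcript probe sets, made with RMA and affy per the submitters' processing notes, which give no version. Whether they come from a single RMA run is not given in the sources used here. The depth of an array is not a count, and the number of arrays limits the precision. The 640 rows equal to an earlier row on every array and 11 arrays that failed the labels' quality mark were left out.

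With limma 3.58.1 in R 4.3.3, group means were estimated in 1 linear model for 22470 transcripts over 112 arrays and 29 groups (83 residual and 4.23 prior degrees of freedom), and adjusted p-values are Benjamini-Hochberg over all transcripts. Tables were made with Python 3.11.15, pandas 2.3.3 and numpy 2.4.6. Treated groups were compared with the controls of the same vehicle, set and day.

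The members, lists and comparisons were chosen with earlier results of these data known. Members described singly are the largest rises and falls per comparison whose arrays do not overlap or that a count of few calls consists of. The other ranks were chosen after their values were seen. Gene lists and symbols could not be used, since the gene table at hand (47357 genes, assembly GRCr8) holds 0 Ensembl identifiers. Alternatives were all arrays, a fit limited to the groups of the comparison, centring and quantile normalization. Others were no dim transcripts, trend and robust variances, replicate blocks and each array left out.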

Additional observations from a re-analysis of the deposited data

Results flagged for a closer look

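The rank 1 transcript, ENSRNOT00000013729, had an array that stood apart from the rest of its group in 5 groups. Replicate 5 of the corn oil controls of 1,4-dichlorobenzene read 8.11, against 2.39, 2.41 and 1.53. The other 4 stood apart at much lower values. They were 3.34 in the 14 d controls of phenobarbital (replicate 5), 3.66 in the 28 d M controls (replicate 2), 3.93 with cyproterone acetate in F at 28 d (replicate 4) and 3.20 in the water controls (replicate 3). ENSRNOT00000065128 read 7.81 in replicate 4 of the water controls, below 8.51 to 8.80 in the others. In all, 90 groups of values were examined, and chance alone sets apart about 1 in 20.

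The effect of cyproterone acetate differed between F and M for 13 members at 14 d and for 23 at 28 d, by the test of the difference of differences.

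Arrays that the labels do not mark as of good quality entered no comparison, and in 3 treated ones the median difference of the members lay above the control arrays that were used. It was 0.30 in replicate 4 of 1,4-dichlorobenzene, against at most 0.16 in a control array, and 0.25 and 0.22 in replicates 1 and 3 of phenobarbital at 90 d, against at most 0.013. A 90 d control array that was also left out read 0.052.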

How the results depend on the processing

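Of 119 recomputed counts of called members that did not leave out an array, replicate blocks included, 101 were within 1.5 times of the reported count and 18 were not. A fit limited to the groups of the comparison holds fewer arrays and takes the spread from those groups alone. The median SD of a member was 0.43 under methapyrilene at 30 mg/kg and 28 d and 0.34 under piperonyl butoxide at 28 d. It was 0.17 in their controls, and the median residual SD of members over all groups was 0.29. Which of these lowered the counts was not tested. The largest losses came with this limited fit. The calls were then 3 of 61 for methapyrilene at 30 mg/kg and 28 d, 1 of 32 for piperonyl butoxide at 28 d, 0 of 54 for the difference between them, 13 of 23 for the cyproterone acetate effect in F minus M at 28 d, 3 of 6 for phenobarbital at 90 d and 0 of 1 at 14 d, 0 of 4 for pioglitazone at 63 mg/kg and 0 of 2 for rosiglitazone. With all arrays phenobarbital called 5 at 14 d and 20 at 90 d, pioglitazone at 16 mg/kg 1 and rosiglitazone 6. For phenobarbital at 14 d the count was 0 with centred arrays, 0 with quantile normalization and 2 without the dimmest 40% of transcripts, and for rosiglitazone it was 1 with centred arrays. The rule found 182 transcripts with a limit of 0.8 in place of 1 and 41 with 1.5.

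With a replicate block the calls were 0 for phenobarbital at 14 d, 0 for rosiglitazone and 23 against 32 for 1,4-dichlorobenzene. Same-numbered arrays of the groups compared had correlations of their deviations from -0.12 to 0.08, none over 0.1. With 2 to 5 such pairs in a comparison, these values cannot decide whether the number marks a pairing.

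Without each array in turn the calls ran from 0 to 1 for phenobarbital at 14 d, 4 to 5 at 90 d, 24 to 33 for 1,4-dichlorobenzene, and 13 to 21 and 21 to 29 for cyproterone acetate in M and 40 to 53 and 51 to 59 in F, at 14 and 28 d. They ran from 37 to 80 for methapyrilene at 30 mg/kg and 28 d, 20 to 39 for piperonyl butoxide, 33 to 61 for their difference, 0 to 0 and 2 to 5 for pioglitazone at 16 and 63 mg/kg, and 0 to 2 for rosiglitazone. For F minus M controls they ran from 26 to 30 on both days, and for the cyproterone acetate effect in F minus M from 9 to 17 at 14 d and 16 to 25 at 28 d. The rule found 108 to 125 transcripts. Total calls were 13 for cyproterone acetate in M at 14 d without control replicate 4, 37 for methapyrilene without replicate 2, 20 for piperonyl butoxide without replicate 3, 34 and 33 for their difference without methapyrilene replicates 2 and 3, and 2 for pioglitazone at 63 mg/kg without replicate 2. The cause of these shifts was not tested.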
